A study of Mus musculus with 9 samples.

Results

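The 10 genes described here encode surface proteins with which myeloid cells speed or slow T cells and are themselves held in check: Cd80, Cd86, Cd40, Icosl, Cd83, Cd274, Pdcd1lg2, Cd276, Cd200r1 and Havcr2. They were taken by name from the 22180 genes measured on the arrays, all 10 were found, and each was read by a single probe set. The cells were taken 24 h after a surgical incision of the plantar hindpaw, in 8-week-old C57BL/6J males, and carried CD11b but not Ly6G. They were sorted by surface Ly6C into low, medium and high gates, with 3 Affymetrix arrays per gate and 9 in all. All gates share the wound, the time and the strain, and no unwounded group was analysed here, so the comparisons are between cells of the same wound. The labels do not say whether the arrays of a gate came from separate or pooled animals. The p-values therefore set each difference only against the scatter of these samples, and that scatter may be technical.

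A T cell that meets its antigen needs a second, costimulatory signal. CD80 and CD86 give it by binding CD28, and the same ligands bind the inhibitory receptor CTLA-4. CD40 is the receptor on antigen-presenting cells through which T cells bearing CD40 ligand drive their activation, ICOSL binds ICOS on activated T cells, and CD83 marks mature dendritic cells and protects MHC class II and CD86 from being taken off the surface. PD-L1, encoded by Cd274, and PD-L2, encoded by Pdcd1lg2, bind PD-1 and restrain T cells, while B7-H3, encoded by Cd276, has been reported both to stimulate and to inhibit. The remaining genes encode receptors rather than ligands: CD200R1 dampens myeloid cells on binding CD200, and TIM-3, encoded by Havcr2, is an inhibitory receptor of T cells that macrophages and dendritic cells also carry.

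The genes of the proteins used for sorting check the labels. Ly6c2, a gene of Ly6C, had log2 intensities of 7.69, 7.90 and 9.40 on the low arrays, 11.27, 11.20 and 11.20 on the medium arrays and 12.26, 12.48 and 12.08 on the high arrays, so replicate 3 of the low gate lay nearest to the other gates. Itgam, which encodes CD11b, was at 10.43 to 10.66 in low, 10.85 to 10.97 in medium and 10.85 to 11.14 in high. Ly6g, the transcript of the excluded neutrophil protein, passed the dim level on 1 of 9 arrays, the dim level being the 95th percentile of 1105 olfactory receptor genes on each array (4.06 to 4.42). All 10 genes of interest lay above it on all 9 arrays. That level is a yardstick of brightness and not a detection call.

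Havcr2 was the only one of the 10 genes past the test between Ly6C low and Ly6C high cells, and it was lower in low. In sorted populations measured in bulk, fewer cells of a type and less RNA per cell cannot be told apart. Havcr2 passed at an adjusted p under 0.05 from limma, a linear model fitted over all 22180 genes, in which 5.67% of genes were called, 3.35% higher in low and 2.32% lower. For Cd274, Cd83 and Cd200r1 the arrays of low and high did not overlap, but their adjusted p-values were above the threshold. With Havcr2 this made 4 of 10 genes without overlap, against 20.1% of all genes, and the same 4 had an unadjusted limma p under 0.05, against 17.9% of all genes. Between low and medium none of the 10 was called (1.93% of all genes were, 1.38% higher and 0.541% lower), although 3 had an unadjusted limma p under 0.05 (14.1% of all genes) and the arrays of 5 did not overlap (16.8% of all genes). Between medium and high none was called either (0.239% of all genes), 2 had an unadjusted limma p under 0.05 (7.53% of all genes), and 1, Cd200r1, had arrays without overlap (10.7% of all genes). The limma F test over the 3 gates called 4% of genes and none of the 10, its lowest adjusted p among them being 0.0843 for Havcr2. The 3 comparisons share arrays and are not independent of each other. The median log2 difference of the 10 genes was 0.15 for low versus high, beside 0.01 over all genes. It was -0.11 for medium versus high, beside 0.03, and 0.25 for low versus medium, beside -0.02.

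**Figure D1:**
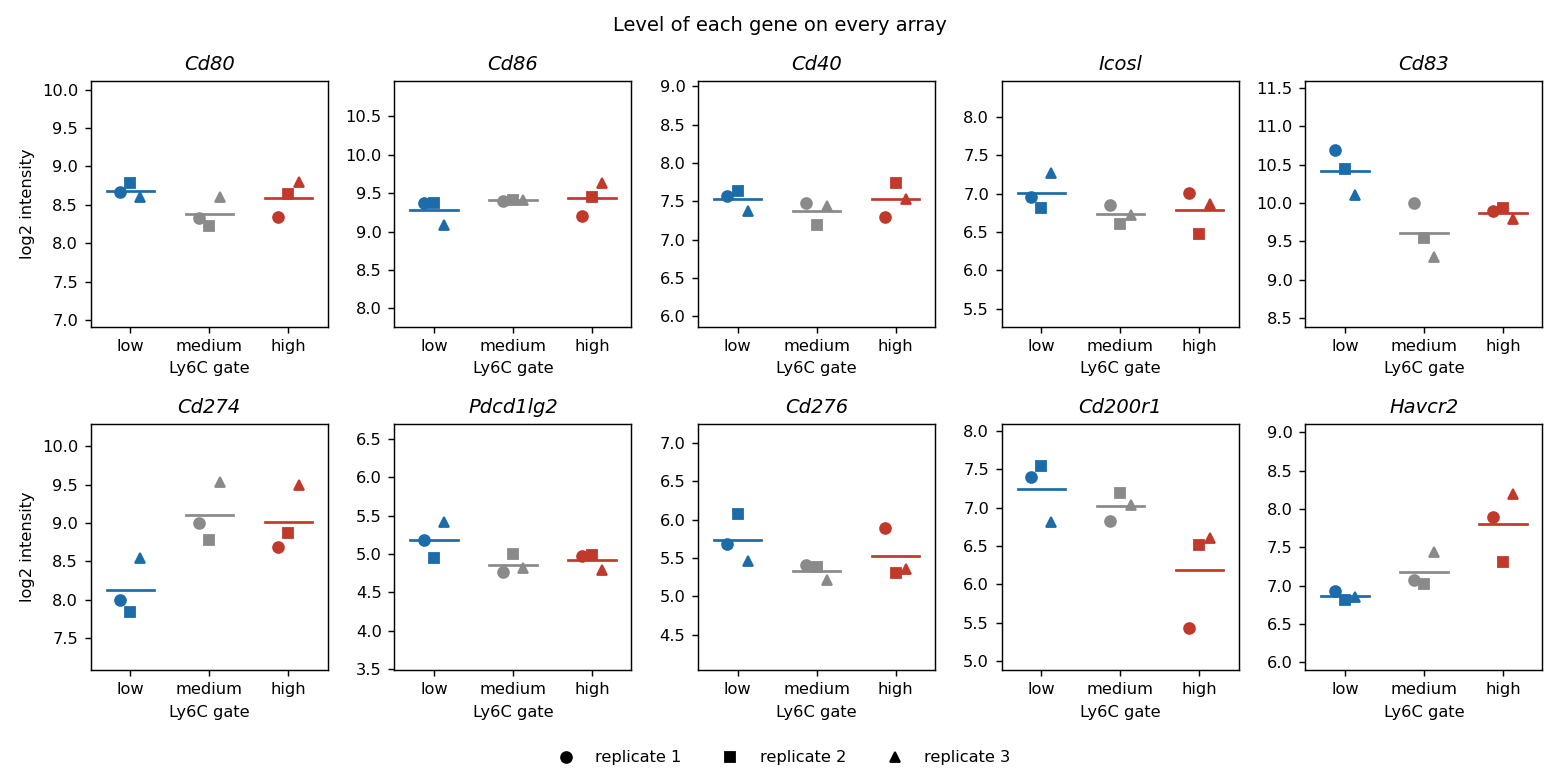
Log2 intensity (vertical axis, each panel spanning the same number of log2 units) of the 10 genes on the 9 arrays, by Ly6C gate, where points are arrays, symbols give the replicate number and bars are gate means (n = 3). Havcr2 sits between 6.81 and 6.93 on the low arrays and between 7.31 and 8.19 on the high arrays, and Cd274 is highest on replicate 3 in each gate.

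Neither ligand of CD28 was called in any comparison. Cd80 measured 8.67, 8.78 and 8.61 in Ly6C low, 8.32, 8.23 and 8.61 in medium and 8.34, 8.65 and 8.80 in high. Cd86 measured 9.37, 9.38 and 9.09 in low, 9.40, 9.41 and 9.41 in medium and 9.21, 9.46 and 9.64 in high. The low and high arrays overlapped for both genes. Cd80 differed by 0.09 between low and high, with a 95% interval of -0.24 to 0.42 (limma adjusted p = 0.845). Low stood 0.30 above medium, with an interval of -0.03 to 0.63 (limma adjusted p = 0.413). Cd86 differed by -0.15, with an interval of -0.45 to 0.14 (limma adjusted p = 0.654). A p above the threshold does not show that the levels were equal, and the intervals give how far apart they could lie. Against medium, the low arrays of Cd86 were all lower, by a mean of 0.13 (limma adjusted p = 0.746), and the SD of the medium arrays was 0.004.

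Cd40 was not called in any comparison. It measured 7.56, 7.63 and 7.38 in low, 7.48, 7.19 and 7.44 in medium and 7.30, 7.74 and 7.53 in high. The 3 gates overlapped throughout. Low and high means were 7.53 ± 0.13 and 7.52 ± 0.22 (SD, n = 3 each), with an interval of the difference of -0.32 to 0.32 (limma adjusted p = 0.999). Icosl measured 6.95, 6.81 and 7.26 in low, 6.86, 6.61 and 6.73 in medium and 7.0, 6.47 and 6.86 in high. It differed by 0.23 between low and high, with an interval of -0.15 to 0.61 (limma adjusted p = 0.579).

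Cd83 was brightest in the low gate, short of the threshold. It measured 10.68, 10.44 and 10.11 in low, 9.998, 9.54 and 9.30 in medium and 9.90, 9.94 and 9.80 in high. Every low array lay above every array of the other gates, while medium and high overlapped. Low exceeded medium by 0.80 (1.74-fold, interval 0.36 to 1.24, limma adjusted p = 0.0839) and high by 0.53 (1.45-fold, interval 0.09 to 0.98, limma adjusted p = 0.176). Medium stood 0.27 below high (limma adjusted p = 0.796).

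Cd274, the gene of PD-L1, was dimmest in the low gate, also short of the threshold. It measured 8.00, 7.84 and 8.55 in low, 9.01, 8.78 and 9.54 in medium and 8.69, 8.87 and 9.49 in high. The low arrays lay below all arrays of medium and high, which overlapped, and replicate 3 was the highest array in each of the 3 gates. Low differed from high by -0.89 (1.85-fold lower, SE 0.27, interval -1.51 to -0.27, limma adjusted p = 0.108) and from medium by -0.98 (1.97-fold lower, interval -1.59 to -0.36, limma adjusted p = 0.128). Medium and high differed by 0.09 (limma adjusted p = 0.965). The summed neutrophil markers were also highest on replicate 3 of each gate (2680 in low, 2108 in medium and 883 in high, on the linear intensity scale, over 10 genes, of which Camp, Ngp and Elane were dim on all arrays). Ly6g, also on that list, was below the dim level on replicate 3 of each gate (3.28 in low, 3.64 in medium and 2.91 in high). The part of the neutrophil markers in the spread of Cd274 was not tested.

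Pdcd1lg2, the gene of the other PD-1 ligand, neighbours Cd274 on chromosome 19 with 0 protein-coding genes between them, and its low arrays were not dimmer. It measured 5.18, 4.95 and 5.42 in low, 4.76, 5.0 and 4.81 in medium and 4.97, 4.99 and 4.79 in high. These values lie little above the dim level (4.42 on medium replicate 1), so a fall like that of Cd274 had little room to show. Low and high overlapped, and low differed from high by 0.27 (interval -0.04 to 0.58, limma adjusted p = 0.36). The log2 ratio of Pdcd1lg2 to Cd274 within each array was -2.82, -2.89 and -3.12 in low, -4.25, -3.77 and -4.72 in medium and -3.73, -3.88 and -4.70 in high. Every low array therefore had a higher ratio than every other array. The ratio differed by 1.16 between low and high and by 1.30 between low and medium, each at an exact two-sided permutation p = 0.1, the smallest that 3 against 3 arrays can give. Between medium and high it differed by -0.14 (exact permutation p = 0.7). The same ratio of Cd80 to Cd86, the CD28 ligands, differed by 0.25 between low and high and by 0.43 between low and medium (exact permutation p = 0.1 each), and by -0.18 between medium and high (exact permutation p = 0.4). These 2 ratios in 3 comparisons were chosen after the values were seen, and adjusted over the 6 tests the lowest of these exact p-values became 0.15.

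RefSeq promoter windows, from 250 bases before to 50 after the annotated start, were on hand for 6 of the 10 genes. Those of Havcr2, Cd274 and its neighbour Pdcd1lg2 are shown so that their letters can be set side by side. Havcr2 and Cd274 were dimmer in low, Cd274 without being called. Pdcd1lg2 was not dimmer, but lay too near the dim level for a fall to show well. Capitals mark matches to GGG, any 5 bases and CC, an NF-kB type pattern, on either strand.
Havcr2 promoter, GRCm38.p6 chr11:46454681-46454980, plus strand: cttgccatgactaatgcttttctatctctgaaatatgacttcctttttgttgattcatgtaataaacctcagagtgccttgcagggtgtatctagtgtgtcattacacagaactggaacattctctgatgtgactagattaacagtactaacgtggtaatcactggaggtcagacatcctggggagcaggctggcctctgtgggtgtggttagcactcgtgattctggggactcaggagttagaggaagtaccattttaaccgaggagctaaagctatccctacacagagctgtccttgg
Cd274 promoter, GRCm38.p6 chr19:29367188-29367487, plus strand: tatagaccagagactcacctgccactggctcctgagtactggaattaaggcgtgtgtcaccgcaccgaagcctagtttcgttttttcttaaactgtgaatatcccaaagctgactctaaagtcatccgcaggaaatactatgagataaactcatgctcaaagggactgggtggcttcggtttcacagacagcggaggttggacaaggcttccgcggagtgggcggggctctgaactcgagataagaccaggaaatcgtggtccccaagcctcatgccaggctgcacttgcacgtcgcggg
Pdcd1lg2 promoter, GRCm38.p6 chr19:29410669-29410968, plus strand: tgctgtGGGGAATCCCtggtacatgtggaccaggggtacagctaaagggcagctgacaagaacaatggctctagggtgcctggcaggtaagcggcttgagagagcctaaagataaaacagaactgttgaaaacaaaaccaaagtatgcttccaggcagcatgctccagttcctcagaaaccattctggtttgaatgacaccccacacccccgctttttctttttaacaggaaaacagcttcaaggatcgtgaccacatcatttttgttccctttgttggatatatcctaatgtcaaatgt
The Pdcd1lg2 window held 1 match, at positions -244 to -235 from the start, and the Havcr2 and Cd274 windows held none. The windows of Cd80 and Icosl held 2 matches each and that of Cd276 held 9, some of which overlap. The pattern is loose, since 50.8% of 32851 RefSeq promoter windows held it. TTCNNNGAA, a STAT type pattern present in 8.3% of windows, and GAAA, any 2 bases and GAAA, an interferon regulatory factor type pattern present in 3.44%, were in none of the 6 windows. A match describes letters and is not a bound site, and the lack of one says only that these letters are not in this window.

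Cd276, the gene of B7-H3, which stromal cells also make, measured 5.68, 6.07 and 5.46 in low, 5.41, 5.38 and 5.21 in medium and 5.89, 5.31 and 5.36 in high. All low arrays lay above the medium arrays, and low overlapped with high. Low exceeded medium by 0.40 (interval -0.04 to 0.84, limma adjusted p = 0.408) and differed from high by 0.22 (interval -0.22 to 0.65, limma adjusted p = 0.674). The brightest high array, replicate 1, was also the one with the most fibroblast signal, a summed level of 7204 against 5058 and 3229 on the other high arrays. The part of fibroblast RNA in the level of Cd276 was not tested.

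Havcr2, the gene of TIM-3, measured 6.93, 6.81 and 6.86 in low, 7.08, 7.02 and 7.44 in medium and 7.89, 7.31 and 8.19 in high. The low arrays lay close together and below all arrays of the other gates, the high arrays spread widely, and medium and high overlapped. The fall in low relative to high was 0.93 on the log2 scale, or 1.91-fold (SE 0.21, interval -1.41 to -0.46, limma adjusted p = 0.0354). Low and medium differed by -0.31 (limma adjusted p = 0.584) and medium and high by -0.62 (interval -1.09 to -0.14, limma adjusted p = 0.508). The call stood near the threshold. It held in 2 of 9 fits that each left out 1 array, those without medium replicate 3 and without high replicate 2 (adjusted p = 0.00974 for the second). It was lost without each of the other 7 arrays, at adjusted p-values from 0.0526 without medium replicate 2 to 0.113 without low replicate 2, and the difference stayed between -1.18 and -0.74 over the 9 fits. It was also lost without moderation over genes (0.143) and when only the low and high arrays were fitted (0.0853).

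The genes most like Havcr2 were Nlrc4, Ifit2 and Gzf1. They had the smallest root mean square difference from it over the 9 arrays, each gene being centred on its own mean, among 6479 genes with a gate mean of at least 6. The differences were 0.15, 0.17 and 0.18, beside an SD of Havcr2 over the arrays of 0.48. Nlrc4, an inflammasome protein, stood at 5.85 ± 0.19 in low, 6.16 ± 0.19 in medium and 6.85 ± 0.58 in high (SD, n = 3 each). High replicate 2 was the lowest high array for Nlrc4 (6.19 against 7.03 and 7.32), and also for Ifit2 and Gzf1. Havcr2 had the same order, and the choice by pattern favours such a likeness. Between low and high Nlrc4 was not called (limma adjusted p = 0.0628), while Ifit2 (0.00507) and Gzf1 (0.00928) were. Ifit2, an interferon-induced protein, stood at 5.33 ± 0.16, 5.84 ± 0.17 and 6.43 ± 0.27 in low, medium and high. Gzf1, a zinc finger protein, stood at 6.06 ± 0.07, 6.58 ± 0.11 and 6.94 ± 0.28.

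Cd200r1 leaned the other way from Havcr2, higher in low and medium, without passing the test. It measured 7.40, 7.54 and 6.81 in low, 6.83, 7.19 and 7.04 in medium and 5.43, 6.52 and 6.60 in high. All high arrays lay below all others, low and medium overlapped, and high replicate 1 stood apart at the bottom. Low exceeded high by 1.06 (2.09-fold, interval 0.36 to 1.76, limma adjusted p = 0.0905), and medium exceeded high by 0.84 (1.78-fold, interval 0.13 to 1.54, limma adjusted p = 0.542). Without high replicate 1 the difference between low and high was 0.69 (limma adjusted p = 0.144). Of its relatives, Cd200r2 and Cd200r3 were dim on all arrays. The ligand gene Cd200 was at 6.05, 5.94 and 6.57 in low, 6.24, 6.37 and 7.05 in medium and 6.20, 5.41 and 6.38 in high, with gates that overlapped.

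**Figure D2:**
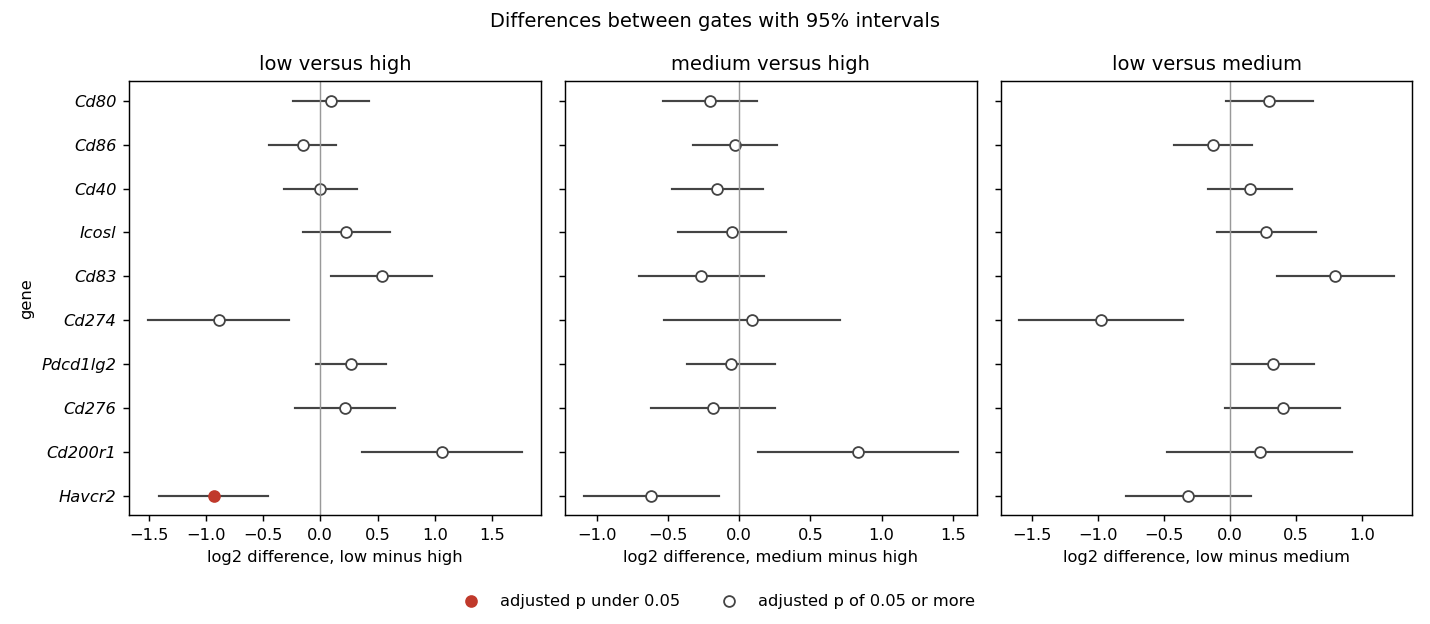
Log2 difference (horizontal axes) of each of the 10 genes for low minus high, medium minus high and low minus medium, with 95% intervals from the limma fit, filled where the adjusted p was under 0.05. Havcr2 in low minus high (-0.93) is the 1 filled point, and the intervals of Cd274, Cd83 and Cd200r1 in that panel also lie to one side of 0.

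Other genes through which myeloid cells signal to T cells were counted from lists of 14 costimulatory and 14 inhibitory ligand genes. Between low and high, 1 costimulatory gene was higher and 3 were lower (median -0.19), and 0 inhibitory genes were higher and 1 was lower (median -0.10). Over all genes 3.35% were called higher and 2.32% lower. Tnfsf4, which encodes OX40 ligand, was higher in low than in both other gates. It measured 5.19, 4.86 and 5.32 in low, 3.33, 3.65 and 4.03 in medium and 3.62, 3.45 and 3.98 in high, so it passed the dim level in the low gate alone, on 3 of 9 arrays. Because its medium and high values were dim, each such array was set to its own dim level. This gave a rise of at least 1.93-fold relative to high (limma adjusted p = 0.00534). Relative to medium the rise was at least 1.75-fold (limma adjusted p = 0.013, but 0.0587 without low replicate 1). The adjusted p beside each such bound, here and below, belongs to the difference as measured, and the bounds were not tested. Tnfsf14, which encodes LIGHT, a ligand of the herpesvirus entry mediator, fell 3.2-fold in low relative to high (limma adjusted p = 0.0203). It measured 5.05, 5.04 and 4.59 in low, 5.69, 5.66 and 6.24 in medium and 6.99, 5.75 and 6.98 in high.

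Slamf7, a self-binding receptor of the SLAM family, fell by 0.42 in low relative to high (limma adjusted p = 0.0335) and by 0.65 relative to medium (limma adjusted p = 0.0128). Pvr, a ligand of DNAM-1 and TIGIT, fell by 0.54 in low relative to high (limma adjusted p = 0.0409). Fgl2, a secreted fibrinogen-like protein that restrains T cells, fell by 0.61 (limma adjusted p = 0.0151). Among the fits that left out 1 array, the call of Tnfsf4 against high held in 9 of 9. That of Tnfsf14 held in 4 and was lost without any 1 low array, high replicate 1 or high replicate 3 (at most 0.0698, without the last). That of Slamf7 held in 3, those without a medium array, and reached 0.107 without low replicate 2. That of Pvr held in 1, without low replicate 3, and reached 0.135 without low replicate 1. That of Fgl2 held in 7 and was lost without low replicate 1 (0.0609) or low replicate 2. The Slamf7 call against medium was lost without low replicate 2 (0.0557). Without moderation over genes, the calls of Tnfsf4 against high (0.0503) and medium (0.105), of Tnfsf14 (0.115) and of Pvr (0.103) were lost. With the 2 gates alone, those of Tnfsf14 (0.0666), Slamf7 against high (0.0554) and Pvr (0.0957) were lost, and with quantile normalization repeated that of Slamf7 against high (0.0811).

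**Figure D3:**
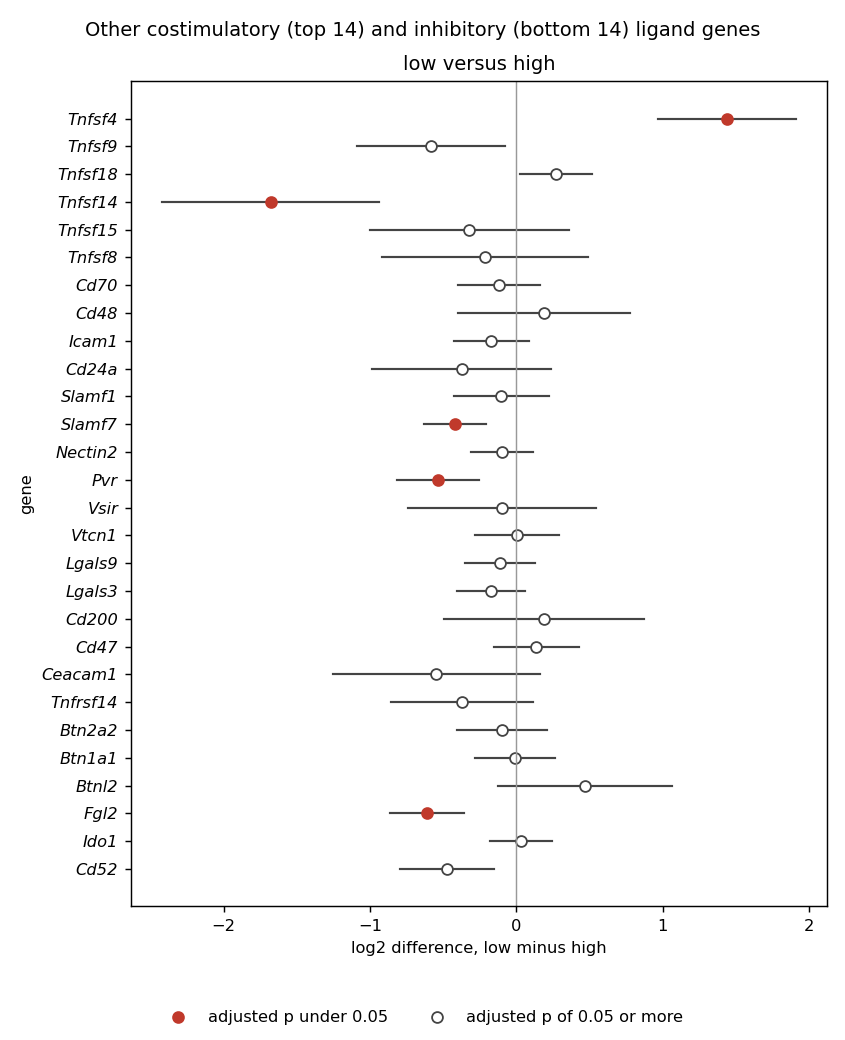
Log2 difference, low minus high (horizontal axis), of the 14 other costimulatory and 14 other inhibitory ligand genes with 95% intervals from the limma fit, filled where the adjusted p was under 0.05. Tnfsf4 at 1.44 is filled to the right of 0, and Tnfsf14, Slamf7, Pvr and Fgl2 are filled to the left.

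Ligands and partners of the 10 genes' own products were read whatever their test. Vsir, which encodes the PD-L1 relative VISTA, was at 8.52 ± 0.41 in low, 8.13 ± 0.47 in medium and 8.62 ± 0.33 in high (SD, n = 3 each, limma adjusted p = 0.929 for low versus high). Lgals9, which encodes galectin-9, a ligand of TIM-3, was at 10.48 ± 0.03, 10.64 ± 0.10 and 10.59 ± 0.15 (limma adjusted p = 0.693). Its low and high arrays overlapped, and the interval of their difference was -0.35 to 0.12. Of 15 receptor genes of T cells, 2 were higher in low than in high and 0 lower (median 0.06), beside 3.35% and 2.32% of all genes. Ctla4, Icos, Pdcd1, Cd40lg, Tigit and Cd27 were dim on all arrays. Cd28 measured 3.68 to 4.22 in low, 4.05 to 4.49 in medium and 4.08 to 4.30 in high, near the dim level. Cd226, which encodes DNAM-1, measured 6.19, 6.07 and 5.58 in low, 3.97, 3.64 and 3.52 in medium and 3.34, 3.37 and 3.70 in high. It was dim on all medium and high arrays, and with these set to their dim levels it rose at least 3.42-fold in low relative to high (limma adjusted p = 0.000366) and at least 3.09-fold relative to medium (limma adjusted p = 0.00192). Of 8 T cell markers, Cd3d, Cd3e, Cd3g and Themis were dim on all 9 arrays, Cd2 and Bcl11b passed the dim level on all 9, and Cd4 was 0.87 above high in low (limma adjusted p = 0.0884). The natural killer cell marker Klrd1 was 3.15 higher in low than in high on the log2 scale (limma adjusted p = 0.00208), while 5 of the 7 markers of that list were dim on all arrays. Cd4, Cd2, Bcl11b and Klrd1 were named after their values were seen, and the part of T and natural killer cells in the level of Cd226 was not tested. Tnfrsf18, which encodes GITR, was also dim on all medium and high arrays. It rose 1.49-fold in low relative to high as measured (limma adjusted p = 0.0195), and at least 1.22-fold with the dim levels. That call was lost without low replicate 1 (0.0751) or high replicate 2 (0.0544), without moderation over genes (0.0537) and with the 2 gates alone (0.0631).

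A list of genes that set how long PD-L1 and CD86 proteins stay on the cell was read with Ciita added. Of these 5 genes, 2 were higher in low than in high and 0 lower (median 0.49), beside 3.35% and 2.32% of all genes. Cmtm6 encodes a membrane protein that keeps PD-L1 from being degraded, as shown in human cells. It measured 9.79, 9.99 and 10.03 in low, 8.95, 8.82 and 9.05 in medium and 9.47, 9.29 and 9.43 in high, without overlap between any of the gates. Cmtm6 rose 1.45-fold in low relative to high (limma adjusted p = 0.0235) and 2-fold relative to medium (limma adjusted p = 0.00493), while Cd274 stood lower in low. The first of these calls was lost without low replicate 2 (0.0837), low replicate 3 (0.0601), high replicate 2 (0.0778) or high replicate 3 (0.0616), and the second held in 9 of 9 such fits. The first was also lost without moderation over genes (0.056) and with the 2 gates alone (0.0553). Marchf8 encodes a ubiquitin ligase related to the one that removes CD86 and MHC class II from the surface of dendritic cells. It was at 6.22 ± 0.19 in low, 5.49 ± 0.10 in medium and 5.15 ± 0.30 in high, a rise of 2.09-fold in low relative to high (limma adjusted p = 0.00655), a call that held in 9 of 9 fits without 1 array. Marchf1, the gene of that ligase itself, was at 4.56 ± 0.06, 4.38 ± 0.07 and 4.44 ± 0.16 (limma adjusted p = 0.681). Ciita, the master regulator of MHC class II genes, was at 5.52 ± 0.27, 5.24 ± 0.60 and 5.11 ± 0.19 (limma adjusted p = 0.531).

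Signalling genes that feed these ligands were counted against the 5.67% of all genes called between low and high. Of 11 measured CD40 signalling genes and 7 measured genes between interferon gamma and PD-L1, 0 were called by limma between low and high, with 2 and 0 at an unadjusted p under 0.05 (medians -0.19 and -0.12). Of 8 measured genes of interleukin 4, thymic stromal lymphopoietin and colony-stimulating factor input, only Tslp was called, with at least a 2.03-fold rise in low (limma adjusted p = 0.0485) once the 2 dim high arrays were set to their dim level. That call held in 1 of 9 fits without 1 array, the fit without low replicate 3, and its adjusted p in the others reached 0.148, without low replicate 1. It was also lost with quantile normalization repeated (0.0546), with arrays centred (0.0586), with the 2 gates alone (0.136) and without moderation over genes (0.186). Il4ra, the interleukin 4 receptor chain, measured 10.39, 10.16 and 10.39 in low, 9.86, 9.19 and 9.60 in medium and 9.91, 9.44 and 9.72 in high, without overlap between low and the other gates (limma adjusted p = 0.0946 for low versus high). Of 14 inhibitory receptors and related receptors of myeloid cells, Timd4 and Cd33 were higher in low and Clec12a was lower (median -0.04). Timd4 is also on the tissue macrophage list below and is counted in both. Timd4 encodes TIM-4, a receptor for phosphatidylserine on dying cells that is related to TIM-3, and was dim on high replicates 1 and 2. With these set to their dim levels it rose at least 10.1-fold in low relative to high (limma adjusted p = 0.00143). The interval of the log2 difference as measured was 2.63 to 4.26, and the call held in 9 of 9 fits without 1 array. Timd4 was also 4.77-fold higher than in medium (limma adjusted p = 0.0189). That call was lost without low replicate 1, low replicate 2 or medium replicate 1 (up to 0.0781 without low replicate 2), without moderation over genes (0.141) or with the 2 gates alone (0.0652). Cd33, a sialic acid-binding receptor, was 2.91-fold higher than in high (limma adjusted p = 0.0351), a call that held in 3 of 9 such fits (without low replicate 3, medium replicate 2 or high replicate 3) and reached 0.124 without low replicate 2. It was lost without moderation over genes (0.155) and with the 2 gates alone (0.0866). Clec12a, an inhibitory lectin for dead cells, was 1.95-fold lower (limma adjusted p = 0.0117), a call that held in 9 of 9 such fits and was lost without moderation over genes (0.0651) and with the 2 gates alone (0.0531).

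Markers of several cell types moved with the gates. Their levels are sums of linear intensity over each list. Between low and high, 3.35% of all genes were called higher in low and 2.32% lower. Dendritic cell markers, of which 6 of 15 were higher in low than in high and 0 lower, summed to 2658 to 3349 in low, 849 to 1122 in medium and 750 to 991 in high, with Itgae alone dim on all arrays. Ccl22 and Ccr7, with log2 means of 9.99 and 9.48 in low, weigh most in the low sums. The rise did not hold for the whole list. Xcr1 (-0.48), Irf8 (-0.40) and Itgae (-0.10) stood lower in low than in high and Cd209a differed by 0.10, none of them called. Tissue macrophage markers, 11 of 12 higher and 0 lower, summed to 13535 to 17834 in low, 5544 to 8054 in medium and 3446 to 4629 in high. Classical monocyte markers, 9 of 9 lower, summed to 1997 to 3650 in low, 7995 to 9206 in medium and 13991 to 15014 in high. This count and sum include Ly6c2, a gene of the sorted protein, whose direction was set by the sort. Fibroblast markers, 10 of 11 lower and 0 higher, summed to 440 to 476 in low, 792 to 817 in medium and 3229 to 7204 in high, and none of these 11 genes was dim on all arrays. Cd83 and Cd200r1 stood higher in low together with the sums of dendritic cell and macrophage markers. Havcr2 and Cd274 stood lower together with the sums of monocyte and fibroblast markers. The part of these cell types in the values was not tested. Between medium and high, where 0.239% of all genes were called, 8 of 11 fibroblast markers and 1 of 9 monocyte markers were lower. Of 12 macrophage markers, 1 was higher. In that comparison Havcr2 differed by -0.62, Cd274 by 0.09, Cd276 by -0.18, Cd83 by -0.27 and Cd200r1 by 0.84, and none of them was called.

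**Figure D4:**
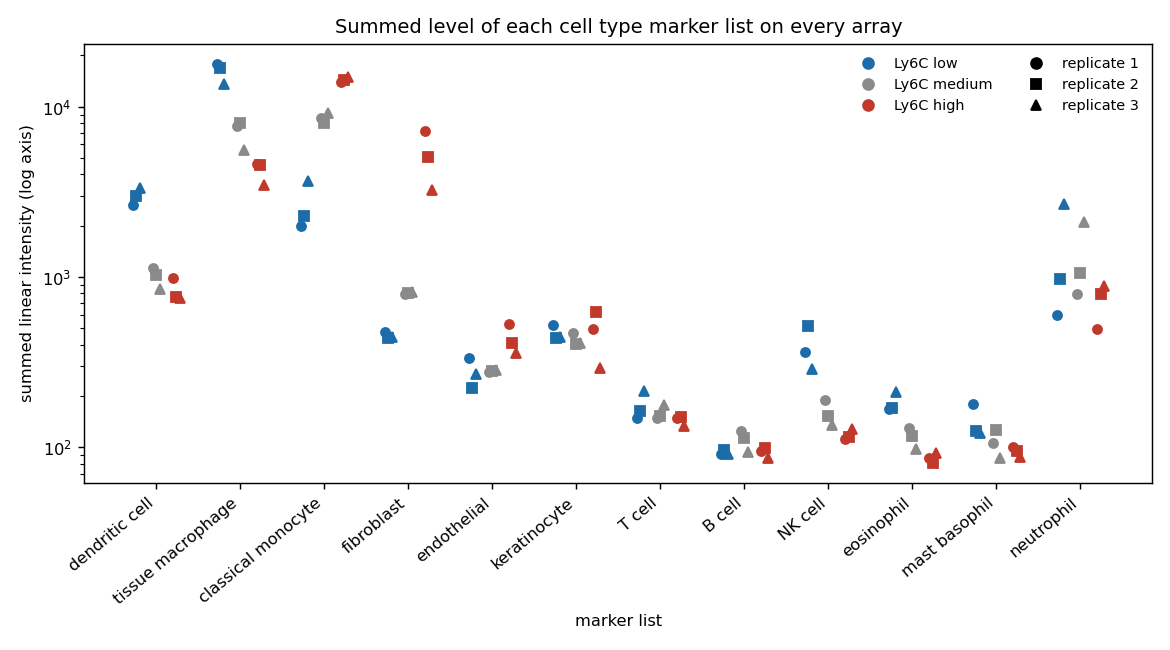
Summed linear intensity (vertical log axis) of each list of cell type markers on the 9 arrays, by Ly6C gate (colour) and replicate number (symbol). Fibroblast markers reach 3229 to 7204 in the high gate and at most 476 in the low gate, while dendritic cell markers lie between 2658 and 3349 in low and at most 991 in high.

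Markers of lymphocytes and granulocytes were summed in the same way and compared between low and high, where 3.35% of all genes were higher and 2.32% lower. T cell markers, 0 of 8 called by limma and 1 at an unadjusted p under 0.05, summed to 149 to 213 in low, 148 to 178 in medium and 134 to 150 in high, with Cd3d, Cd3e, Cd3g and Themis dim on all arrays. B cell markers, 0 of 7 called and 0 at an unadjusted p under 0.05, summed to 91 to 96, 94 to 125 and 86 to 99, with Ms4a1, Cr2, Blk and Fcrla dim. Natural killer cell markers, 1 of 7 higher, summed to 289 to 514 in low, 135 to 190 in medium and 112 to 128 in high, with Ncr1, Klrb1c, Gzma, Eomes and Klre1 dim. Eosinophil markers, 3 of 6 higher, summed to 168 to 212, 98 to 130 and 81 to 93, with Epx and Il5ra dim. Neutrophil markers, 1 of 10 higher and 1 lower, summed to 595 to 2680, 790 to 2108 and 495 to 883. Mast cell and basophil markers, 1 of 9 higher, summed to 122 to 179, 86 to 126 and 88 to 100, with Fcer1a, Ms4a2, Gata2, Mcpt8 and Cma1 dim. Keratinocyte markers, 1 of 9 higher, summed to 440 to 521, 406 to 466 and 292 to 627, with Krt15 and Dsg3 dim. Endothelial markers, 1 of 10 lower, summed to 223 to 336, 275 to 283 and 356 to 532, with Tek, Tie1 and Esam dim.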

How the data were processed

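Per the submitters' processing notes, the authors made the values with RMA, which corrects background, normalizes between arrays and summarizes each probe set; its version and settings, and the genome build, are not given in the sources used here. The RNA was amplified into cDNA before labelling, per the labels' protocols. The deposited values are log2 intensities and were used as they stand, with no pseudocount and no filter. The number of arrays limits the precision of each value.

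Of 41345 probe sets, 23521 had a single gene symbol in the platform table, 1814 had several and 16010 were not listed there. A gene was read by its probe set of highest mean over the 9 arrays, which left 22180 genes. Gene identifiers of 23328 probe sets matched RefSeq (GRCm38.p6). R 4.3.3 with limma 3.58.1 (lmFit, eBayes, two-sided) fitted the 9 arrays of the 3 gates together, with Benjamini-Hochberg adjustment over the 22180 genes and a threshold of 0.05. Intervals cover 95%. A fold against a gate with dim arrays was taken with each dim array at its dim level. The adjusted p beside it is that of the difference as measured. The procedure was tested on simulated data. Ratios within arrays used an exact permutation test. The 10 genes and all lists were chosen with earlier results of these data known. Of 92 genes in 8 pathway lists, 88 were measured, and of 121 in 12 marker lists, 113. Named were the 10 genes, a fixed set of partners, up to 4 called genes of the largest difference per list, and the 3 genes most like each called gene.

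Alternatives, whose effect is given beside the genes they change or in the closing section, were repeated quantile normalization, centred arrays, the mean of all probe sets, 2 filters on dim genes, a prior with trend and robust estimation, weights per array, a fixed or random block for the replicate number, only the 2 gates compared, no moderation over genes, a 2-fold limit and leaving out each array.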

Additional observations from a re-analysis of the deposited data

How the results depend on the processing

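For low versus high, 1 of the 10 genes was called as reported. This became 3 (Havcr2, Cd200r1 and Cd274) among the 6306 genes with a log2 value of 6 on 3 arrays, where fewer genes are tested. Of those 6306 genes 1305 were called, and Cd276 and Pdcd1lg2 were not among the 6306. With replicate number entered as fixed block the count became 2 (Havcr2 and Cd274), and 7.05% of all genes were called. The count became 0 without moderation over genes, with the 2 gates alone or at a 2-fold limit, and 0 to 1 without 1 array. For low versus medium the count of 0 became 1 (Cd83) with that filter, 1 (Cd83) with array weights and 2 (Cd274 and Cd83) with the fixed block. Over all genes tested, these settings called 593 of the 6306 genes left by the filter, and 601 and 629 of 22180 genes. The F test's count of 0 became 1 with the filter, 1 with array weights, 3 with the fixed block and 0 to 1 without 1 array. Over all genes tested it called 994 of 6306 with the filter. Of 22180 genes it called 1095 with array weights and 1095 with the fixed block. The replicate block gave Cd274 an adjusted p of 0.00544 for low versus high and 0.00801 for low versus medium, and Cd83 one of 0.0302 for low versus medium. With it the calls between low and high of Slamf7 (0.0593) and Cd33 (0.0556) were lost and Il4ra was called (0.0211), as it was with the filter (0.0469). Same-numbered arrays of different gates had deviations from their gate means that correlated at -0.02 to 0.31 across genes, so the numbers were not taken to pair the samples. In 5 of 9 pairs an array correlated best with its own number, a hint from the data and not from the design. The random block gave the counts of the fit without a block.

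Over all genes, 1258 were called for low versus high, against 385 without moderation, 644 with the 2 gates alone, 598 at the 2-fold limit and 596 to 1243 without 1 array. For medium versus high, 53 became 0 without moderation, 1 with the 2 gates alone and 2 to 72 without 1 array. For low versus medium, 427 became 33 without moderation, 211 with the 2 gates alone, 227 at the 2-fold limit and 119 to 522 without 1 array. For the F test, 888 became 96 without moderation and 342 to 827 without 1 array. Havcr2, Slamf7, Pvr, Fgl2, Clec12a, Tnfrsf18 and Cmtm6 differed by less than the 2-fold limit. The fixed block called 1564, 61 and 629 genes. Higher and lower calls for low versus high were 744 and 514 as deposited, 670 and 584 with quantile normalization repeated, and 691 and 562 with arrays centred.

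Differences near 0 changed sign without being called. Between low and high, Cd40 went to -0.012 with quantile normalization repeated, -0.031 with arrays centred and -0.11 to 0.11 without 1 array. Ctla4 went to -0.0013, -0.028 and -0.074 to 0.072 under the same settings. Without 1 array, Cd80 ranged from -0.036 to 0.20, Vsir from -0.29 to 0.13, Cd28 from -0.26 to 0.0051 and Cd200 from -0.11 to 0.38. Between medium and high, Cd86 went to 0.056 and Icosl to 0.0072 with quantile normalization repeated. Without 1 array, Cd86 ranged from -0.14 to 0.073, Icosl from -0.21 to 0.062, Cd274 from -0.13 to 0.32 and Cd276 from -0.29 to 0.0018. Each of the 10 genes has a single probe set of its own, so its probe sets could not be compared. The cause of these changes was not tested.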
